A study of Mus musculus with 6 samples.

Results

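Desmosomes and adherens junctions hold the cells of an epithelium together, and 10 of their genes were followed here in tongue grafts of melanoma: Dsp, Jup, Pkp1, Pkp3, Dsg2, Dsg3, Dsc2, Dsc3, Perp and Cdh1. The genes were taken by symbol from a table of 55487 gene rows. Each of the 10 passed the count filter that left 15666 genes for testing. Hosts were C57BL/6J mice labelled WT, whose age was not given, and each graft was of the mouse melanoma line B16F10, placed under the mucosa of the tongue. Their cervical lymph nodes had received a viral vector 6 weeks earlier, either AAV2/retro-Trpv1-hM4D(Gi)-mCherry or its control without the receptor, AAV2/retro-Trpv1-mCherry. Such vectors are taken up by nerve endings and named for Trpv1, a channel of nociceptors, and hM4D(Gi) is a designer receptor that quiets neurons when its ligand is present. Deschloroclozapine, that ligand, was given 2 times per day for 12 days. The 3 grafts of the inhibition group carried the label of inhibited nociceptive nerves of the nodes. The 3 control grafts were labelled as given vehicle, whereas the design text names ligand for the mice without separating the groups, so what the controls received was unclear. Non-tumour tissue was cut away before RNA was taken. Vector transcripts were not analysed here, and the labels did not say whether the 6 grafts came from separate mice, so the p-values measure the spread between these samples.

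A desmosome joins the keratin filaments of neighbouring cells through a chain of proteins. Desmogleins and desmocollins are cadherins that meet between the cells, plakoglobin and the plakophilins bind their tails, and desmoplakin ties this plaque to keratin. In stratified epithelium such as that of the tongue, desmoglein 3 and desmocollin 3 belong mainly to the lower layers and desmoglein 1 and desmocollin 1 to the upper ones. E-cadherin, the product of Cdh1, forms the neighbouring adherens junction. Melanoma cells often carry N-cadherin in its place.

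All 10 genes had a positive log2 fold change for inhibition over control, and none (0 of 10) passed the test at an adjusted p under 0.05. Dsp, Pkp1, Dsg2, Cdh1 and Pkp3 had the larger differences, with fitted folds of 1.82 to 2.14, and Dsg3 stood almost level at a fold of 1.08. The median log2 fold change of the 10 was 0.71, against 0.0049 over all genes tested. Across all genes tested, edgeR called 0.0383% in either direction (0.0319% higher and 0.00638% lower), and 51% had a positive log2 fold change. With an unadjusted p under 0.05 there were 5 of the 10 on the higher side (Dsp, Jup, Pkp1, Dsc2 and Cdh1) and 0 on the lower, where all genes gave 8.36% and 7%. That 5 changed when 1 library was left out, as did the count over all genes, given in brackets. It became 8 without inhibition 3 (1544 of 15890), 7 without control 2 (1664 of 16262) and 3 without control 1 (847 of 16233). It became 2 without control 3 (1094 of 15981), inhibition 1 (770 of 16213) or inhibition 2 (772 of 15763). In 2 of the 10 genes, Dsp and Jup, each inhibition library lay above each control library, beside 10.2% of all genes tested. DESeq2 called 1 of the 10 higher (Jup, adjusted p = 0.0250), beside 2.37% of all genes to which it gave an adjusted p. Dsg2 was given none. limma-voom called 0 of the 10 and 0% of all genes. Without the count filter edgeR called 4 of the 10 higher, beside 2.59% of all genes, and without inhibition 3 it called 3, beside 1.07%.

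The grafts were uneven within both groups. Control 1 was the lowest of the 6 libraries for all 10 genes. Control 2 was the highest control for 9 of the 10, the exception being Jup, and inhibition 3 was the lowest inhibition library for 9, the exception being Dsg3. Inhibition 3 lay below control 2 in 7 of the 10 genes. The summed level of the 10 genes was 250, 391 and 304 CPM in controls 1, 2 and 3 (CPM being the counts of a gene relative to the TMM-scaled size of its library) and 537, 637 and 346 CPM in inhibition 1, 2 and 3. The gap between the highest and lowest control, on the log2 scale, exceeded the fitted group difference for 5 of the genes (Dsg2, Dsg3, Dsc3, Perp and Cdh1). The same gap among the inhibition libraries exceeded it for 8, the exceptions being Dsc2 and Cdh1. In bulk RNA of a graft, fewer cells of a type and less RNA per cell cannot be told apart.

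**Figure D1:**
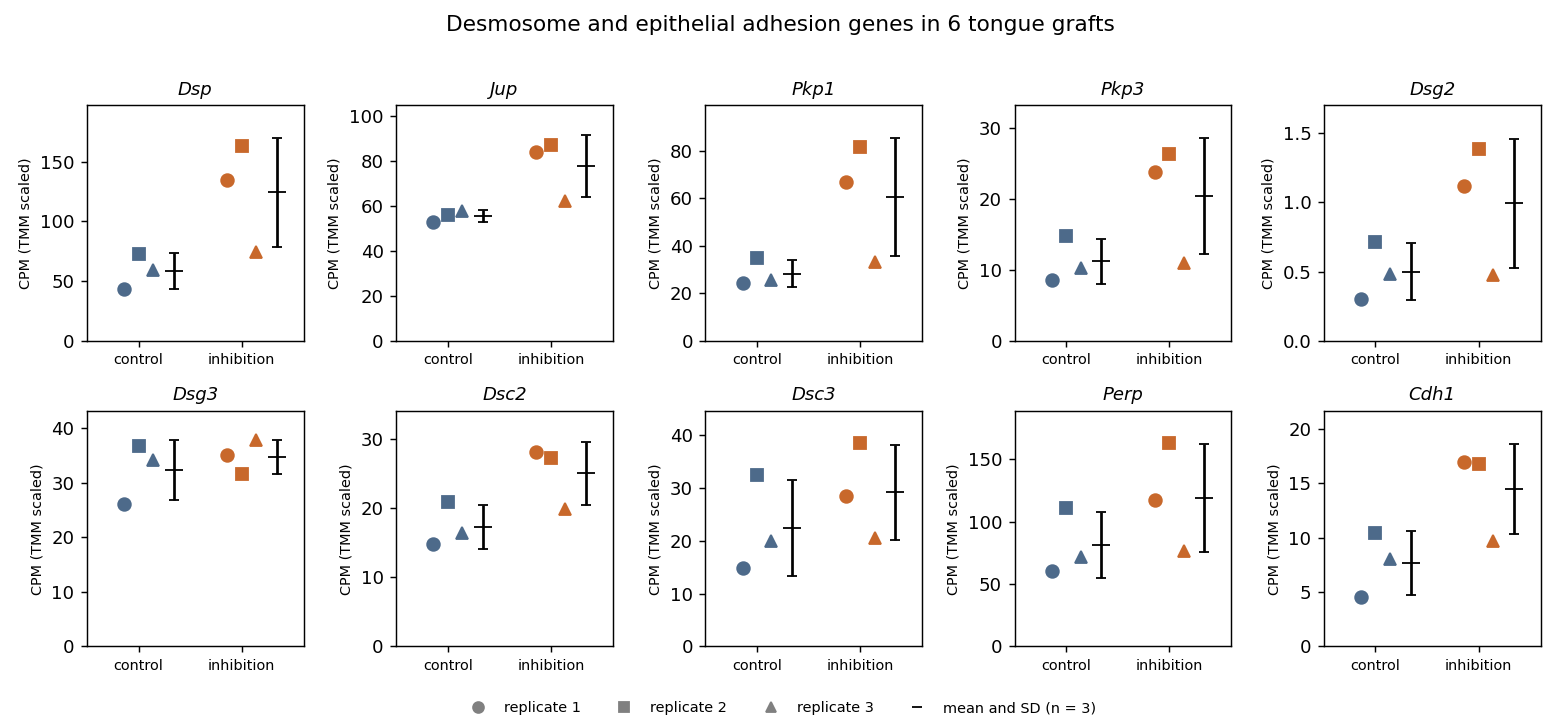
Level of each of the 10 genes in every library, in CPM on linear axes that start at 0, with circles, squares and triangles for replicates 1, 2 and 3 and a black mark with bars for the mean and SD of 3 libraries. Inhibition 1 and 2 stood apart from inhibition 3 in most panels, and Dsg3 lay between 26.1 and 37.8 CPM in both groups.

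Of the plaque genes, Dsp and Pkp1 had the largest fitted differences of the 10, at log2 fold changes of 1.08 and 1.10. Dsp encodes desmoplakin, the link from the plaque to keratin filaments. It stood at 43.3, 73.1 and 59.4 CPM in controls 1, 2 and 3 and at 135, 163 and 74.6 CPM in inhibition 1, 2 and 3. The groups did not overlap, but control 2 and inhibition 3 lay close together. Means were 58.6 ± 14.9 and 124 ± 45.4 CPM (SD, n = 3 per group). This was a log2 fold change of 1.08 ± 0.35 (standard error) with an edgeR adjusted p of 0.259. Jup encodes plakoglobin, which serves both desmosomes and adherens junctions. Its controls were the tightest of the 10 genes on the log2 scale, at 52.9, 55.9 and 58.0 CPM, and its inhibition libraries held 84.2, 87.3 and 62.0 CPM. The means of 55.6 ± 2.57 and 77.8 ± 13.8 CPM gave a log2 fold change of 0.48 ± 0.12 (edgeR adjusted p = 0.179), the smallest p of the 10. Without inhibition 3, the edgeR adjusted p for Jup was 0.0153 at a log2 fold change of 0.61, and over all alternatives it ran from 0.000121 to 0.9997.

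The promoters of Jup and Dsp are shown because these were the 2 of the 10 genes matched in the RefSeq promoter table; they are also the 2 whose groups did not overlap. Both are the 250 bases before the start site in RefSeq on GRCm38.p6, read 5′ to 3′ along the gene's strand: chr11:100397791-100398040 on the minus strand for Jup and chr13:38151044-38151293 on the plus strand for Dsp. Capitals mark the motifs CCAAT (the CCAAT box) and GGGCGG (the GC box bound by Sp and KLF factors), on either strand.
Jup: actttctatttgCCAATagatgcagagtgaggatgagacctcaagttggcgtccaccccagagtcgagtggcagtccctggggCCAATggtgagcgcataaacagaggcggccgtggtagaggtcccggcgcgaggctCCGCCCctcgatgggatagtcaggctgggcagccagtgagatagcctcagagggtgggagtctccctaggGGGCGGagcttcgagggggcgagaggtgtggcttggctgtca
Dsp: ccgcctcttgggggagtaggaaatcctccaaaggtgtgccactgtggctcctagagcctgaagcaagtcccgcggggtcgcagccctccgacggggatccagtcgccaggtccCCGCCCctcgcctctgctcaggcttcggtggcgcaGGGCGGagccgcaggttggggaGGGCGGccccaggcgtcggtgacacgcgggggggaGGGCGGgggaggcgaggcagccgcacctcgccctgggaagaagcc
The Jup window held GGGCGG at 2 places and CCAAT at 2, and the Dsp window held GGGCGG at 4 places and CCAAT at 0, with no motif overlapping another. Of 32851 windows of the same length in the RefSeq table, 32.7% held GGGCGG and 33.8% held CCAAT. The E2 box CACCTG, bound by Snail and Zeb repressors, and the Grainyhead core AACCGG were found 0 times in both windows, against 17.2% and 5.62% of all windows. GC content was 62% for Jup and 72.4% for Dsp, with a median of 52.4% over all windows. These matches describe the sequence and say nothing of binding.

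Pkp1 and Pkp3 encode plakophilins, armadillo proteins that cluster the cadherins and strengthen the plaque. Pkp1, the plakophilin typical of upper layers, stood at 24.3, 34.8 and 25.7 CPM in the controls and at 66.6, 81.5 and 33.1 CPM in the inhibition grafts. Inhibition 3 fell inside the control range, while the other inhibition libraries were well above it. The log2 fold change was 1.10 ± 0.36 (edgeR adjusted p = 0.262). Pkp3, found in all living layers and in simple epithelia, held 8.57, 14.7 and 10.3 CPM in controls and 23.8, 26.3 and 11.01 CPM under inhibition, with the same order of libraries. Its log2 fold change was 0.86 ± 0.36 (edgeR adjusted p = 0.327). Without inhibition 3 both were called by edgeR, Pkp1 with an adjusted p of 0.00914 and a log2 fold change of 1.38, and Pkp3 with 0.0393 and 1.16; these were the lowest adjusted p-values of each over the alternatives, and the highest were 0.9997.

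Perp is a membrane protein of the desmosome, known as a target of p53 and of its epithelial relative p63. It stood at 60.7, 111 and 71.5 CPM in controls and at 118, 163 and 76.7 CPM under inhibition. Control 2 lay close to inhibition 1, and inhibition 3 lay well below control 2 and close to control 3. The log2 fold change was 0.55 ± 0.36 (edgeR adjusted p = 0.501).

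Among the cadherins the genes differed in how far apart the groups stood. Dsg3, the desmoglein of the lower layers, held 26.1, 36.7 and 34.1 CPM in controls and 35.0, 31.6 and 37.8 CPM under inhibition. The groups overlapped, and the log2 fold change of 0.11 ± 0.13 (edgeR adjusted p = 0.723) turned to -0.0316 when control 1 was left out. Dsc3, its desmocollin partner in those layers, stood at 14.8, 32.5 and 20.0 CPM in controls and 28.4, 38.5 and 20.6 CPM under inhibition (log2 fold change 0.38 ± 0.35, edgeR adjusted p = 0.637). Dsc2, a desmocollin found in most epithelia, was at 14.8, 20.9 and 16.4 CPM in controls and 28.2, 27.3 and 19.9 CPM under inhibition. Only control 2 and inhibition 3 crossed, and the log2 fold change was 0.53 ± 0.17 (edgeR adjusted p = 0.223). Dsg2, the desmoglein of simple epithelia and heart, was near the limit of detection, with 5, 11 and 10 counts in controls and 16, 27 and 10 counts under inhibition. Its means were 0.500 ± 0.207 and 0.994 ± 0.467 CPM (SD, n = 3 per group), and its log2 fold change of 0.98 ± 0.51 (edgeR adjusted p = 0.393) rested on those few counts.

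Cdh1, which encodes E-cadherin, held 4.59, 10.4 and 8.08 CPM in controls and 17.0, 16.8 and 9.72 CPM under inhibition. Inhibition 1 and 2 lay above every control, and inhibition 3 lay between controls 3 and 2. The means of 7.69 ± 2.93 and 14.5 ± 4.14 CPM gave a log2 fold change of 0.91 ± 0.33 (edgeR adjusted p = 0.266). Cdh2, the N-cadherin gene, stood at 69.1 ± 6.91 and 65.0 ± 5.76 CPM (SD, n = 3 per group; log2 fold change -0.09, edgeR adjusted p = 0.687). Per exon kilobase Cdh1 was below Cdh2 in every library, with log2 ratios of -3.17, -1.73 and -2.36 in controls and -1.23, -0.99 and -1.95 under inhibition. The ratio overlapped between the groups.

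**Figure D2:**
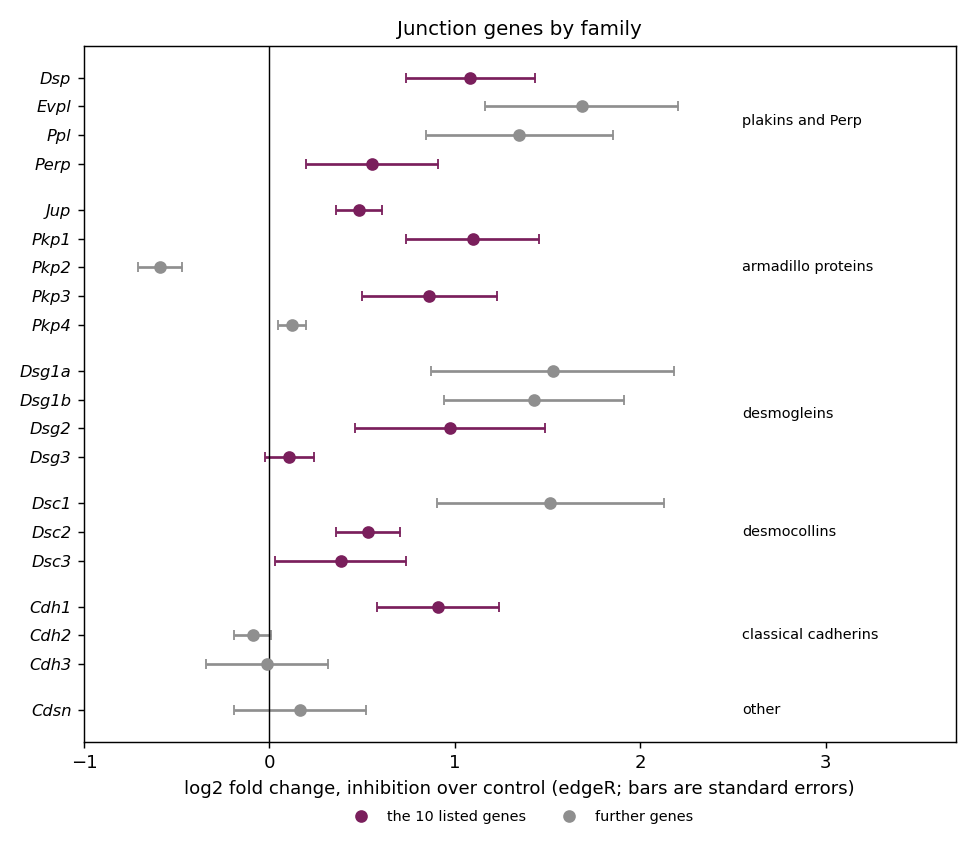
Log2 fold change of inhibition over control for the 10 genes (purple) and for further tested genes of the same families (grey), with bars for the edgeR standard error. The 10 genes lie between 0.11 (Dsg3) and 1.10 (Pkp1), and Pkp2 lies at -0.59.

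Divided by exon length, the order of the 10 genes was much the same in each graft. Perp was first in every library, at 51.3 ± 19.5 CPM per exon kilobase (SD over 6 libraries). Jup (10.4 ± 2.34), Dsp (9.46 ± 4.86) and Pkp1 (8.83 ± 4.75) followed, and these neighbours differed by less than their SD. Dsg3 (4.81 ± 0.609), Dsc3 (4.78 ± 1.65), Pkp3 (4.37 ± 2.07) and Dsc2 (4.02 ± 1.04 CPM per exon kilobase) came next. Here too each gene differed from the next in order by less than their SD. Cdh1 was the ninth in every library, at 2.43 ± 1.07, and Dsg2 the tenth, at 0.0904 ± 0.0509 CPM per exon kilobase. Perp and Dsg2 stood clear of their neighbours in every library. Dsg3 and Pkp3 moved farthest in this order, and in opposite directions. Dsg3 went from the fifth or sixth in the controls and inhibition 3 to the eighth in inhibition 1 and 2, and Pkp3 from the seventh or eighth to the fifth. Lengths are the union of all annotated exons, so genes with rarely used exons are placed too low.

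The 6 libraries also served to measure how alike the genes were. Each gene's log2 CPM was centred on its mean over the libraries, and the distance is the root mean square gap between such profiles. Perp (0.134) and Dsc2 (0.151) lay closest to the mean profile of the 10 genes, and Dsg3 lay farthest (0.436). Of the 10, Dsp and Pkp1 were 0.123 apart and Dsc3 and Perp 0.115, whereas Pkp1 and Dsg3 were 0.652 apart. Pkp3 and Dsg2 were 0.0923 apart, but the few counts of Dsg2 pull its profile flat. Among other tested genes with at least 5 CPM, the 8 with the smallest distance to the mean profile were Dcn (0.0615), Pycard (0.0672), Id1 (0.0854), C1s1 (0.0896), Phyh (0.0923), Ahnak (0.0955), Il1rl2 (0.0973) and Ndrg2 (0.0974). Dcn, for example, held 62.4, 106 and 84.3 CPM in controls and 132, 161 and 86.3 CPM under inhibition. The distances of the basal keratin genes Krt5 and Krt14 were 0.169 and 0.548, and that of the suprabasal keratin gene Krt13 was 0.521. The muscle genes Acta1 and Ckm lay at 0.319 and 0.474, and the melanocyte genes Pmel and Dct at 0.294 and 0.400.

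Of the further desmosome genes, none (0 of 8 tested) was called by edgeR, and 5 of the 8 had a log2 fold change above that of every one of the 10. An unadjusted p under 0.05 was found for 3 on the higher side and 1 on the lower. The 8 tested genes had a median log2 fold change of 1.39. Evpl, which encodes envoplakin of the cornified envelope, stood at 5.85, 10.5 and 6.39 CPM in controls and 28.2, 34.8 and 9.77 CPM under inhibition (log2 fold change 1.68 ± 0.52, edgeR adjusted p = 0.247). Dsg1b, an upper-layer desmoglein, had a log2 fold change of 1.43 ± 0.48 (edgeR adjusted p = 0.260). Pkp2, the plakophilin of heart and simple epithelia, went the other way, with 45.3, 40.3 and 34.7 CPM in controls and 24.7, 25.7 and 29.3 CPM under inhibition. Its groups did not overlap, as for 11% of all genes tested on the lower side, and the log2 fold change was -0.59 ± 0.12 (edgeR adjusted p = 0.143). Named after their values were seen, Dsg1a (1.53 ± 0.65, edgeR adjusted p = 0.357), Dsc1 (1.52 ± 0.61, 0.337) and Ppl, which encodes periplakin (1.35 ± 0.50, 0.310), were other upper-layer genes with overlapping groups. Cdsn, which encodes corneodesmosin of the uppermost layers, was near level, at 34.3, 38.0 and 21.7 CPM in controls and 32.5, 50.4 and 22.2 CPM under inhibition (log2 fold change 0.17, edgeR adjusted p = 0.851). Pkp4, a plakophilin relative, was at 0.12 (edgeR adjusted p = 0.462). Dsg1a and Dsg1b are close copies, so reads may be split between them. Dsg4, the desmoglein of hair and hard keratin, failed the count filter with 0, 0 and 1 counts in controls and 11, 61 and 7 counts under inhibition, and Dsg1c failed it with at most 1 count in any library.

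The make-up of each family, as shares of CPM per exon kilobase, followed from these values and was examined after they were seen, so no test is given. Dsg3 made up 56.7, 46.0 and 64.4% of the desmogleins in controls and 30.4, 20.5 and 53.3% under inhibition. Dsg1a and Dsg1b together made up 42.7, 53.3 and 34.7% in controls and 67.5, 74.7 and 45.2% under inhibition. Both shares overlapped between the groups, since control 2 and inhibition 3 crossed. Of the desmocollins, Dsc1 held 26.2, 31.8 and 23.9% in controls and 44.9, 51.0 and 31.2% under inhibition, where again the crossing was between control 2 and inhibition 3. Among Pkp1, Pkp2 and Pkp3, Pkp1 held 30.9, 37.4 and 35.4% in controls and 54.2, 57.3 and 43.6% under inhibition, and Pkp2 held 53.9, 40.6 and 44.9% against 18.8, 17.0 and 36.2%. These plakophilin shares did not overlap between the groups. The log2 ratio of Pkp1 to Pkp2 was between -0.80 and -0.12 in controls and between 0.27 and 1.76 under inhibition.

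**Figure D3:**
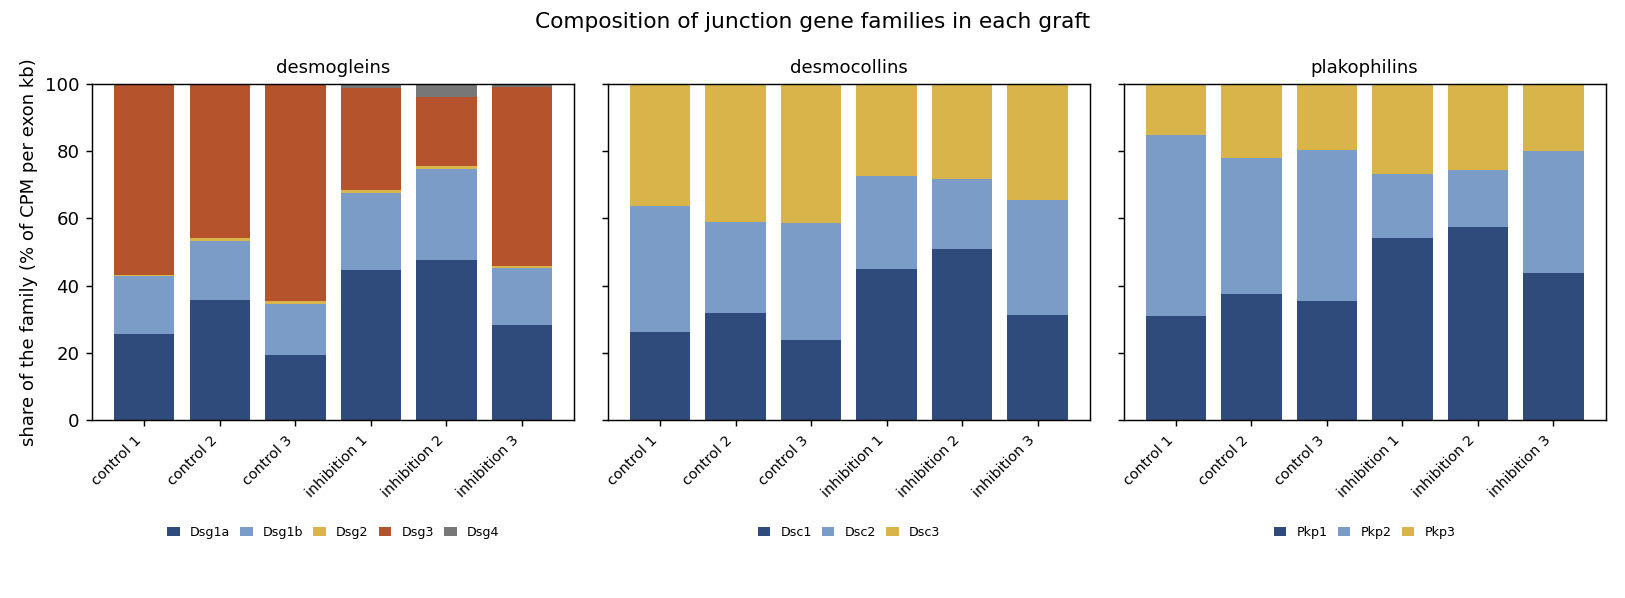
Share of each gene within the desmogleins, the desmocollins and the plakophilins in every library, as stacked bars in percent of CPM per exon kilobase. The Dsg3 share is smallest in inhibition 1 and 2 (30.4 and 20.5%), and the Pkp1 share is above 43% in all 3 inhibition libraries.

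Other junction genes are given from lists written with earlier results of these data known. No gene of these lists was called by edgeR. Of 11 adherens junction genes 6 were positive and 5 negative, the median being 0.04 on the log2 scale, and 1 had an unadjusted p under 0.05. That gene, Nectin1, whose product is an immunoglobulin-like adhesion molecule, held 1.87, 2.86 and 2.42 CPM in controls and 5.47, 5.23 and 2.95 CPM under inhibition (0.93, edgeR adjusted p = 0.228). Nectin4 (0.88, adjusted p = 0.373) and Vcl, which encodes vinculin (-0.17, 0.393), had the next smallest p. Of 14 tight junction genes 10 were tested, 9 were positive and the median was 0.26, and 3 on the higher side had an unadjusted p under 0.05. These were the claudin genes Cldn4 (log2 fold change 0.99, edgeR adjusted p = 0.229) and Cldn1 (0.93, 0.250) and the adhesion molecule gene F11r (0.33, 0.233).

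Hemidesmosomes anchor basal cells to the matrix below, and their genes were listed with those of the basement membrane anchor. Of these 9 genes 2 were positive and 7 negative, the median was -0.0179, and 0 had an unadjusted p under 0.05. Dst, Plec and Cd151 of this list had control means of 987, 237 and 200 CPM, against 21.2 for Col17a1 and 14.4 for Itgb4. The cells that this RNA came from were not determined, so the median need not describe hemidesmosomes. Col17a1 (log2 fold change 0.48, edgeR adjusted p = 0.354) and Itgb4 (0.38, 0.386), membrane components of the hemidesmosome, were the 2 positive genes. The 6 gap junction genes were all positive, the median being 0.90, and 2 had an unadjusted p under 0.05: Gjb2 (0.33, edgeR adjusted p = 0.266) and Gjb6 (1.43, 0.291), both epithelial connexins. Gja1, the widely expressed connexin 43, was at 0.33 (0.333).

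Regulators of epithelial fate form another list. Of 13 listed, which include the adhesion molecule gene Epcam, 12 were tested and all 12 were positive. Their median was 0.73, and 5 had an unadjusted p under 0.05, with 0 called by edgeR. Ovol1, a zinc finger factor of differentiating epithelium, stood at 1.33, 2.28 and 2.13 CPM in controls and 5.12, 7.43 and 2.95 CPM under inhibition (1.43 ± 0.37, edgeR adjusted p = 0.179). Klf5 (1.27, adjusted p = 0.195), a factor of proliferating epithelium, did not overlap between the groups either, while the splicing factor gene Esrp2 (1.25, 0.198) did. Known repressors of Cdh1 were also positive. All 7 tested of 8 were positive, with a median of 0.24. Zeb1, the one with an unadjusted p under 0.05, held 6.52, 12.4 and 12.0 CPM in controls and 17.7, 14.9 and 17.8 CPM under inhibition (0.70 ± 0.23, edgeR adjusted p = 0.227). Snai2 and Zeb2 were at 0.60 and 0.15 (adjusted p = 0.341 and 0.413).

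Markers of other tissues also had mostly positive differences, with 0 of any list called by edgeR. Libraries held 14477277 to 20972494 counts. Melanocyte genes were high throughout, at a summed 15570 to 23092 CPM in controls and 22164 to 26818 CPM under inhibition (7 of 7 tested, 6 positive). RNA of keratin and skeletal muscle genes was found in every graft, and the cells that it came from were not determined. The 3 basal keratins summed to 369 to 582 and 444 to 544 CPM, 8 suprabasal and stress keratins to 1028 to 2440 and 1308 to 4380 CPM, and 15 skeletal muscle genes to 860 to 1929 and 2357 to 4005 CPM, with all 14 tested muscle genes positive, 10 of them at an unadjusted p under 0.05. Of the basal keratins 2 were positive and 1 negative. Of 7 tested suprabasal and stress keratins 4 were positive and 3 negative, and most of their sum came from Krt4 and Krt13. The positive ones were Krt10 (log2 fold change 2.58, edgeR adjusted p = 0.250), Krt4 (1.52, 0.443), Krt13 (1.08, 0.497) and Krt6a (0.22, 0.678). The negative ones were Krt6b (-0.74, edgeR adjusted p = 0.312), Krt16 (-0.22, 0.497) and Krt17 (-0.46, 0.762). Endothelial genes summed to 161 to 275 and 306 to 344 CPM (8 of 9 positive), fibroblast genes to 638 to 978 and 1174 to 1568 CPM (7 of 7), and leukocyte genes to 70.4 to 102 and 102 to 114 CPM (4 of 5 tested). The negative leukocyte gene, S100a8, held 20.6, 6.70 and 17.7 CPM in controls and 0.14, 0.31 and 4.81 CPM under inhibition. Its log2 fold change was -3.02 ± 1.16 (edgeR adjusted p = 0.320). Its groups did not overlap, as for 11% of all genes tested on the lower side. Keratins of simple epithelium (0 of 4 tested, at most 1.13 CPM summed), salivary gland genes (0 of 7 tested, 3 at 0 in all libraries) and heart muscle genes (1 of 6 tested) were near 0. The exception was the heart gene Tnnt2, at 9.11 ± 5.41 and 5.25 ± 1.65 CPM (SD, n = 3 per group). The part of these tissues in the differences of the 10 genes was not tested. Fits with the basal keratin or muscle level as a covariate are given below and do not test it.

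Basal keratin and muscle levels were set beside the 10 genes graft by graft. As mean log2 CPM less the control mean, the 10 genes stood at -0.36, 0.37 and -0.0116 in controls 1, 2 and 3 and at 0.83, 1.01 and 0.16 in inhibition 1, 2 and 3. The basal keratins Krt5, Krt14 and Krt15 stood at -0.41, 0.43 and -0.0238 and at 0.47, 0.87 and -0.25. Skeletal muscle genes stood at -0.56, 0.71 and -0.15 and at 1.70, 1.59 and 0.83. The 3 levels ordered the controls alike, and inhibition 3 was the lowest of its group for each. The basal keratins differed from each other in this. In inhibition 1, 2 and 3, Krt15 held 57.9, 106 and 14.2 CPM and Krt5 held 118, 141 and 90.0 CPM. Krt14, the most abundant of them, held 286, 296 and 340 CPM and so was highest in inhibition 3. With the basal keratin level as a covariate the median log2 fold change of the 10 genes was 0.38, with all 10 positive, and Dsp was called by edgeR, beside 0.517% of all genes called higher (0.68 ± 0.0851, adjusted p = 0.00581, the lowest of its alternatives, which reached 0.9997). With the muscle level as a covariate the median was -0.19, 8 of the 10 genes were negative and 0 were called. The muscle level did not overlap between the groups, so muscle content and group cannot be told apart here.

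**Figure D4:**
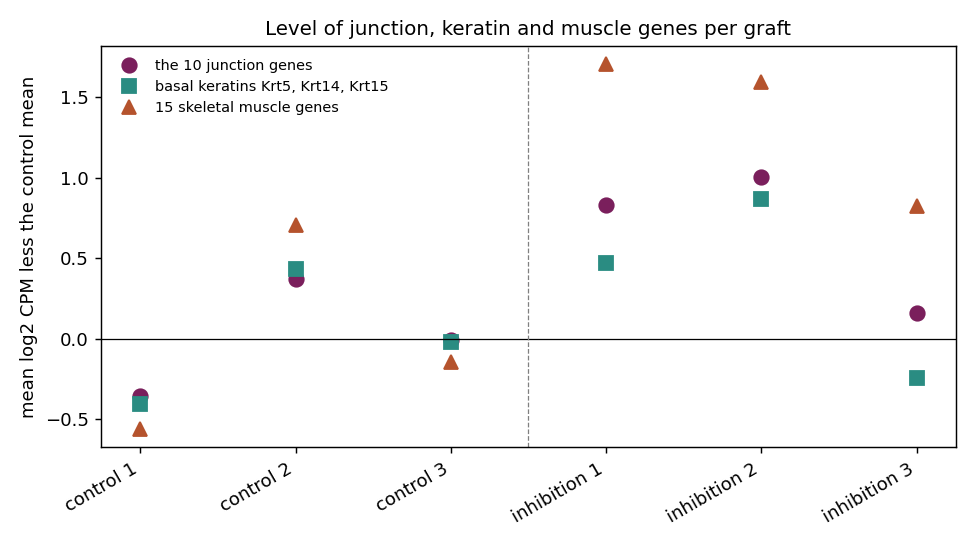
Mean log2 CPM, less the control mean, of the 10 junction genes (circles), 3 basal keratins (squares) and 15 skeletal muscle genes (triangles) in each library, with a dashed line between the groups. Control 2 is the highest control and inhibition 3 the lowest inhibition library for each of these mean levels.

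Ratios of the 10 genes to keratins did not all point one way, and they too were chosen after the values were seen. The log2 ratio of Dsp to Krt5, per exon kilobase, was -2.75, -2.58 and -2.79 in controls and -1.94, -1.92 and -2.41 under inhibition, without overlap. Krt5 itself held 66.0, 99.5 and 93.5 CPM in controls and 118, 141 and 90.0 CPM under inhibition (log2 fold change 0.43, edgeR adjusted p = 0.389). The ratio of Dsg3 to Krt5 was -3.01, -3.11 and -3.12 in controls and -3.42, -3.82 and -2.92 under inhibition, which overlapped. Against Krt14, whose log2 fold change was -0.23 (edgeR adjusted p = 0.504), Dsg3 stood at -5.45, -5.58 and -5.35 in controls and -5.02, -5.22 and -5.16 under inhibition. The groups did not overlap for this ratio. For Pkp1 to the suprabasal keratin gene Krt13 the log2 ratio was -6.13, -6.75 and -5.61 in controls. Under inhibition it was -6.32, -6.44 and -5.78, so the groups overlapped, and the group means were -6.16 and -6.18. The ratio of Jup to Ctnnb1, the gene of its relative beta-catenin, was -5.09, -4.91 and -4.98 in controls and -4.32, -4.18 and -4.67 under inhibition, with no overlap.

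**Figure D5:**
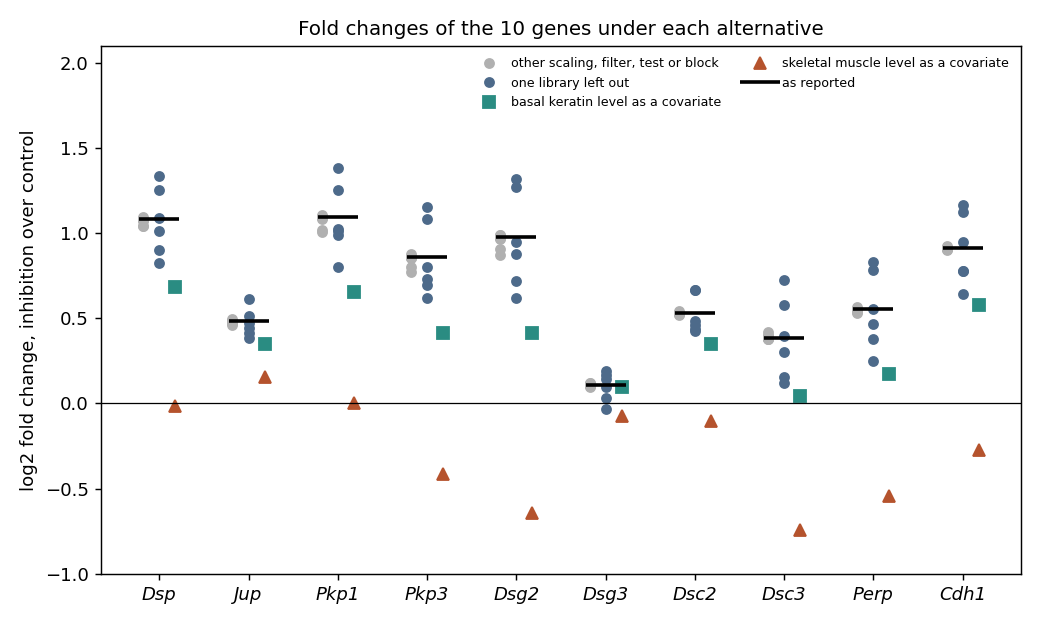
Log2 fold change of each of the 10 genes as reported (black line) and under other scaling, filters, tests or a replicate block (grey), with 1 library left out (blue), and with the basal keratin (green squares) or skeletal muscle level (brown triangles) as a covariate. Leaving out 1 library kept 9 of the 10 genes above 0, and the muscle covariate left Jup at 0.16 and Pkp1 at 0.0013 as the 2 genes above 0.

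On GRCm38 the 10 genes, each annotated as protein-coding, lie in several places, with 4 of them (Dsg2, Dsg3, Dsc2 and Dsc3) on chromosome 18. Dsp (ENSMUSG00000054889) lies on chromosome 13 from 38151294 to 38198577, and Jup (ENSMUSG00000001552) on chromosome 11 from 100368958 to 100397763. Pkp1 (ENSMUSG00000026413) lies on chromosome 1 from 135871395 to 135919207, and Pkp3 (ENSMUSG00000054065) on chromosome 7 from 141078218 to 141090510. Perp (ENSMUSG00000019851) lies on chromosome 10 from 18845020 to 18857073, and Cdh1 (ENSMUSG00000000303) on chromosome 8 from 106603351 to 106670246. Exons of Dsp and Dsg2 overlap genes on the opposite strand, which held 0 and 4 counts over all libraries.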

How the data were processed

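RNA was sequenced from 6 grafts from which non-tumour tissue had been cut away, 3 per group. Values in the deposited table were raw counts for Ensembl genes, all of them whole, and library totals differed. HISAT2 2.0 and mm10 were named per the submitters' processing notes; for the counting program, annotation and strand, the setting is not given in the sources used here. The treated columns were headed as denervation and were matched by number to the samples titled as inhibition.

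Genes were filtered with filterByExpr (count minimum 10, total minimum 15), scaled with TMM and tested with edgeR 4.0.16 (quasi-likelihood, robust; R 4.3.3), with Benjamini-Hochberg adjustment over 15666 genes. The standard error is the log2 fold change over the square root of F. Log2 CPM used a prior count of 2. Coordinates and exon lengths came from GENCODE M21. limma 3.58.1, DESeq2 1.42.0 and other settings were alternatives. On simulated counts for this comparison (15435 genes) the fit found 61% of 100 genes altered 2 times and 81% of 100 altered 4 times, and called 26 of 15242 unchanged genes. Named beside the 10 genes were up to 3 genes of smallest p per junction list, fixed measures of tissue content and 8 genes by likeness. Of the genes this rule names, 1 is not reported here. The 10 genes and the lists were chosen with earlier results of these data known.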

Additional observations from a re-analysis of the deposited data

How the results depend on the processing

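The median log2 fold change of the 10 genes stayed positive under 16 of 17 alternatives. The looser adjusted p under 0.1, counted among them, could not change it. The median was 0.54 to 0.96 when 1 library was left out. With the skeletal muscle level as a covariate it was -0.19, and the log2 fold changes were -0.0155 for Dsp, -0.41 for Pkp3, -0.64 for Dsg2, -0.0738 for Dsg3, -0.10 for Dsc2, -0.74 for Dsc3, -0.54 for Perp and -0.27 for Cdh1; the cause was not tested. Dsg3 also turned, to -0.0316 without control 1, in a range of -0.0316 to 0.19 with 1 library left out. The 10 genes called were 4 without the count filter (Jup, Pkp3, Dsc2 and Cdh1), 1 with DESeq2 (Jup), 1 with the basal keratin covariate (Dsp), 0 to 3 with 1 library left out (3 without inhibition 3) and 0 elsewhere. Among all genes, 5 were called higher and 1 lower; the counts were 748 and 439 without the filter, 349 and 192 with DESeq2, 0 and 0 with limma-voom (1286 and 1043 at an unadjusted p under 0.05), 26 and 7 at an adjusted p under 0.1, 81 and 10 with the basal keratin covariate and 0 and 0 with the muscle covariate (191 and 325 unadjusted). With 1 library left out they were 0 to 170 higher and 0 to 47 lower.

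The replicate block gave 11 higher and 3 lower, with 0 of the 10 genes called. Same-numbered libraries did not deviate together in every pair (correlations of -0.18, 0.33 and 0.0865 over genes), and control 1 went best with inhibition 3 (0.30), so the numbers were not taken as pairs.

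Depth limits Dsg2 most among the 10, with 5 to 27 counts per library and no value under the stricter filter; the others held at least 76. Scaling by RLE, by upper quartile or without muscle, keratin and junction genes moved the median of all genes to between -0.0025 and 0.016, and all 10 genes stayed positive under each.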
